A study of Homo sapiens with 24 samples.

Results

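Neurofilaments are the intermediate filaments of neurons, and microtubules with their associated proteins form the other long polymers of axons and dendrites. The genes described here encode both sets of proteins: the 3 neurofilament subunits NEFL, NEFM and NEFH and their partner alpha-internexin (INA), the microtubule-associated proteins MAP1A, MAP1B, MAP2 and tau (MAPT), the stathmin STMN2, which binds tubulin dimers, and UCHL1, a neuronal ubiquitin hydrolase. They were chosen by function, with the rise of NEFL in CAMTA1 cells already known, and looked up by Ensembl identifier. All 10 were among the 60279 genes listed for each library, and 8 of them were among the 19997 that averaged 5 or more counts per library, the only ones tested. MAP2 and STMN2 fell below that limit, and are described by their counts.

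Neurofilaments are built from subunits of different length, of which NEFL is the one needed to form the filament core, and NEFM and NEFH carry long tails that project from it. MAP1A and MAP1B are related proteins that bind along microtubules, and in the nervous system MAP1B is known for early growth of axons and MAP1A for mature neurons. MAP2 is typical of dendrites and tau of axons. Outside neurons these genes are often low, and several are known targets of the repressor REST.

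RNA was sequenced from SW872 cells, an established human liposarcoma line, as 24 libraries in 8 groups of 3. All groups were pools of cells stably transduced with a retroviral vector that carries neomycin resistance, and were selected with G418, so the cells of a library are a pool and not a clone, and the 3 libraries of a group come from separate transductions. The first 6 groups, collected after 48 h at confluence, carried empty vector (EV), TAZ-CAMTA1, TAZ4SA, YAP-TFE3, YAP5SA or TFE3, and 2 groups were sub-confluent: CAMTA1 and its empty vector, titled sub-confluent and here called EVsub. TAZ-CAMTA1 and YAP-TFE3 are the fusion proteins of epithelioid hemangioendothelioma, the C-terminal parts of the fusions come from CAMTA1 and TFE3, which are transcription factors, and TAZ4SA and YAP5SA are TAZ and YAP with serine sites of the Hippo kinases changed to alanine. The constructs were Flag-tagged.

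Library totals ran from 19700277 to 35287476 counts and mitochondrial genes took 3.20% to 6.36% of them. CAMTA1 itself was counted at 124 ± 8.09 CPM in the CAMTA1 libraries and 144 ± 7.14 CPM in TAZ-CAMTA1, against 22.9 ± 1.23 CPM in EVsub and 21.4 ± 2.05 CPM in EV (SD, n = 3). CPM is a count relative to the library total after scaling by TMM. WWTR1, the gene of TAZ, was lower in the libraries labelled TAZ4SA (134 ± 0.539 CPM) than in EV (204 ± 20.3 CPM), against what the label leads one to look for. The group is therefore called by its label throughout. In TAZ-CAMTA1, which also carries part of TAZ, WWTR1 was not raised either (181 ± 2.15 CPM). YAP1 was at 253 ± 4.99 CPM in YAP5SA and 153 ± 16.0 CPM in YAP-TFE3, against 128 ± 12.5 CPM in EV. TFE3 was at 336 ± 19.3 CPM in TFE3 and 283 ± 49.6 CPM in YAP-TFE3, against 119 ± 10.1 CPM in EV. Of the 14 mesenchymal markers, all were detected in every group. Of the 18 neuronal identity markers, 4 to 7 had at most 3 counts in every library of a group, and ELAVL4 was at 0 in every library, so the defining genes of neurons were partly absent from these cells. The third YAP-TFE3 library lay farthest from its own group of all 24, with a root mean square log2 difference of 0.524 to the other libraries of its group.

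Per exon length, the genes differed by orders of magnitude within EV. In RPKM, MAP1B stood at 29.2 ± 1.67 and NEFH at 19.5 ± 1.14, and INA and MAP1A followed at 4.11 ± 0.0395 and 3.14 ± 0.552. UCHL1 was at 1.21 ± 0.142 RPKM. NEFM at 0.238 ± 0.0657 RPKM, MAPT at 0.156 ± 0.0248 and NEFL at 0.123 ± 0.0221 were the low members. These liposarcoma cells therefore carried RNA of the heavy neurofilament subunit and of MAP1B in quantity, while the core subunit NEFL was near 12 counts per library.

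NEFL (ENSG00000277586, GRCh38 chromosome 8, 24950955 to 24956721, minus strand) is the light subunit. Its counts were 523, 516 and 274 in the CAMTA1 libraries and 17, 5 and 13 in EVsub. In CPM these were 15.7, 17.1 and 13.5 against 0.648, 0.225 and 0.369, and no value of one group came near the other. The confluent empty vector had 12 counts in each library. TAZ-CAMTA1, which contains the C-terminal part of the same protein, had 9, 11 and 29 counts, or 0.341, 0.377 and 0.892 CPM, a range that overlaps that of EV (0.414 to 0.582 CPM). The other elevated group was YAP-TFE3, where the counts were 64, 67 and 133 and the CPM values 2.08, 2.10 and 3.85. The remaining group means lay between 0.289 CPM in TFE3 and 0.691 CPM in YAP5SA, and neighbours in that order overlapped. From the lowest to the highest group mean the range was 53.3-fold.

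NEFM (ENSG00000104722, chromosome 8, 24913758 to 24919098, plus strand), the medium subunit, lies next to NEFL on the chromosome. It was highest in CAMTA1, at 4.94, 3.41 and 2.75 CPM from 164, 103 and 56 counts, above EVsub at 1.18, 1.35 and 1.34 CPM. The libraries labelled TAZ4SA came next with 1.41, 1.98 and 2.66 CPM. They did not reach the lowest CAMTA1 library, but they overlapped YAP5SA (0.709 to 2.05 CPM). YAP-TFE3 held NEFM at 0.815 ± 0.158 CPM, no higher than EV at 0.864 ± 0.239 CPM, although NEFL was elevated there. An antisense gene overlaps the exons of NEFM and had at most 14 counts in a library.

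NEFH (ENSG00000100285, chromosome 22, 29480218 to 29491390, plus strand), the heavy subunit, was the most abundant neurofilament gene in every group. It stood at 285, 252 and 240 CPM in CAMTA1 and at 86.1, 89.3 and 90.3 CPM in EVsub. YAP-TFE3 was the lowest group, with 38.5, 39.3 and 38.6 CPM, and none of its libraries overlapped any other group. EV held 71.3, 78.8 and 71.3 CPM. TAZ-CAMTA1 at 61.6, 67.0 and 56.0 CPM overlapped TFE3 at 66.3, 65.9 and 53.9 CPM, so the order of these neighbours cannot be read from the libraries.

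INA (ENSG00000148798, chromosome 10, 103277138 to 103290346, plus strand), alpha-internexin, joins neurofilaments in central neurons. It varied least of the tested genes, by 2.30-fold between the highest and lowest group means. CAMTA1, the libraries labelled TAZ4SA and EVsub, with means of 23.3, 20.9 and 20.4 CPM, overlapped at the top, and YAP-TFE3 at 10.1 ± 1.49 CPM overlapped TFE3 at the bottom. Exons of NT5C2, on the opposite strand, overlap those of INA and held a mean of 992 counts, and without a stated use of strand in the counting the values of INA are uncertain.

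**Figure D1:**
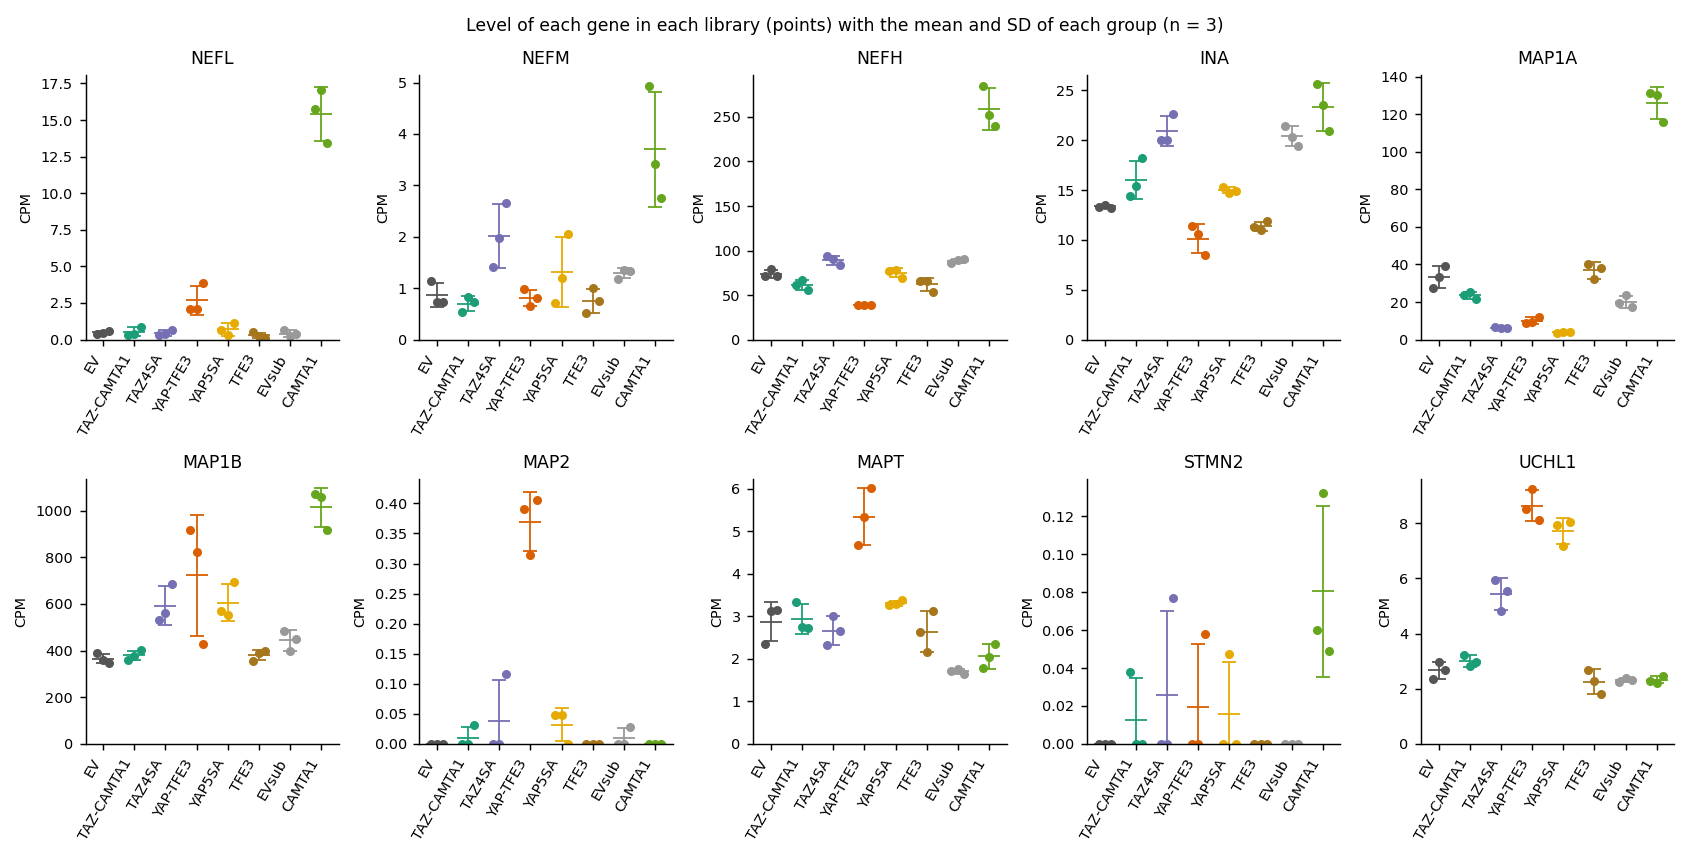
Level in CPM (vertical axes, linear from 0) of the 10 genes in each of the 24 libraries (points), with group mean and SD (bars, n = 3). The 3 CAMTA1 libraries stood above all others for NEFL, NEFM, NEFH, MAP1A and MAP1B, and YAP-TFE3 for MAP2, MAPT and UCHL1. The lowest CAMTA1 library was only just above the highest other for NEFM (2.75 against 2.66 CPM in TAZ4SA) and MAP1B (919 against 917 CPM in YAP-TFE3). So was the lowest YAP-TFE3 library for UCHL1 (8.13 against 8.04 CPM in YAP5SA). Of the 10 genes, 8 were high enough to test, without MAP2 and STMN2.

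MAP1A (ENSG00000166963, chromosome 15, 43510958 to 43531620, plus strand) had 132, 130 and 116 CPM in CAMTA1 and 19.5, 23.7 and 17.5 CPM in EVsub. EV stood at 27.5, 33.5 and 39.2 CPM, and TFE3 overlapped it. The 3 groups with the lowest levels were YAP-TFE3 (8.81, 9.17 and 12.2 CPM), the libraries labelled TAZ4SA (6.71, 5.97 and 6.14 CPM) and YAP5SA (3.64, 4.14 and 4.02 CPM), and no 2 of these overlapped. The range of group means, 32.0-fold, was second to that of NEFL.

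MAP1B (ENSG00000131711, chromosome 5, 72107234 to 72209565, plus strand) was the most abundant of the set. The CAMTA1 libraries held 1070, 1057 and 919 CPM, and EVsub 482, 397 and 451 CPM. In YAP-TFE3 the libraries disagreed, at 917, 823 and 429 CPM, and the low value is the third library, which was also the farthest from its group. YAP5SA and the libraries labelled TAZ4SA overlapped at 606 ± 78.3 and 594 ± 82.2 CPM, and EV, TFE3 and TAZ-CAMTA1 overlapped near 366 ± 20.9 CPM.

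MAPT (ENSG00000186868, chromosome 17, 45894527 to 46028334, plus strand), the gene of tau, was highest in YAP-TFE3 (4.68, 5.34 and 6.02 CPM) and lowest in EVsub (1.72, 1.76 and 1.65 CPM). CAMTA1 at 1.78, 2.05 and 2.36 CPM lay just above EVsub with no overlap. EV (2.88 ± 0.457 CPM) overlapped TAZ-CAMTA1, the libraries labelled TAZ4SA and TFE3. It also just overlapped CAMTA1, with 2.348 CPM in the lowest EV library and 2.358 CPM in the highest CAMTA1 library.

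UCHL1 (ENSG00000154277, chromosome 4, 41256413 to 41268455, plus strand) was higher in YAP-TFE3, YAP5SA and the libraries labelled TAZ4SA than in any other group. These groups did not overlap each other. YAP-TFE3 held 8.52, 9.23 and 8.13 CPM, YAP5SA 7.94, 7.19 and 8.04 CPM and the libraries labelled TAZ4SA 5.95, 4.81 and 5.56 CPM. All libraries of the other groups lay between 1.79 and 3.22 CPM, CAMTA1 (2.29, 2.22 and 2.46 CPM) and EVsub (2.25, 2.39 and 2.30 CPM) among them.

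Upstream stretches of promoters are shown to set the letters beside 2 genes with higher counts in CAMTA1 cells, MAP1A and MAP1B, and 1 that was level there, UCHL1. They are the 250 bases before the RefSeq start on GRCh38.p14, plus strand, 5′ to 3′, with the letters CGCG in capitals, the core that DNA-binding domains of the CAMTA family are known to recognise.
MAP1A, chr15:43510704-43510953: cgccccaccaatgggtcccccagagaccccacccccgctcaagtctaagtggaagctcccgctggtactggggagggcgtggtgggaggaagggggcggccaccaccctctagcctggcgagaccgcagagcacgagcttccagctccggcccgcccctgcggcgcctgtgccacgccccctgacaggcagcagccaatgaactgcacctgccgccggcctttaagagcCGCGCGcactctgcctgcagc
MAP1B, chr5:72107225-72107474: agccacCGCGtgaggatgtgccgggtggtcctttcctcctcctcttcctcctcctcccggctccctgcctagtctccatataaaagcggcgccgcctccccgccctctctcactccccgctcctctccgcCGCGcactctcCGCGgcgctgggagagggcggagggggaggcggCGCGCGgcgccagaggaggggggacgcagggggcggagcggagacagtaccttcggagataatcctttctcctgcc
UCHL1, chr4:41256678-41256927: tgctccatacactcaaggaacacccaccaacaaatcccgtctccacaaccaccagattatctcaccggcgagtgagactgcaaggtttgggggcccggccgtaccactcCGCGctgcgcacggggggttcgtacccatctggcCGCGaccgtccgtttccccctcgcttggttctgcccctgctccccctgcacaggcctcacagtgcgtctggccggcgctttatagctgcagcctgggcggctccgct
CGCG, which reads the same on both strands and may overlap itself, occurred 2 times in the MAP1A stretch, 5 times in that of MAP1B and 2 times in that of UCHL1. The RefSeq table held 9 windows for 5 of the genes (INA, MAP1A, MAP1B, MAP2 and UCHL1), each running from 250 bases before to 50 after a start, and 5 of the 9 windows held CGCG, against 49.9% of all 35116 windows. GGAATG, the site of TEAD factors, was found on either strand in 1 of 9 windows, the second start of MAP1B, against 14.0% of all windows. CACGTG, an E-box of the kind bound by TFE3, was in 0 of 9 windows and in 7.26% of all. The printed stretches of MAP1A, with its CAMTA1-high counts, and UCHL1, with level counts, both held CGCG. The window of INA, whose CAMTA1 and EVsub libraries overlapped, held it 6 times, and that of the second MAP1A start 0 times. A match is only a description of the letters.

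MAP2 (ENSG00000078018, chromosome 2, 209424047 to 209734147, plus strand) was seen almost only in YAP-TFE3, with 12, 10 and 14 counts. EV, TFE3 and CAMTA1 had 0 counts in all libraries, and no library of the remaining groups exceeded 3. The YAP-TFE3 mean of 0.370 CPM was 3.05-fold the limit that 3 counts per library set in EV, and 4.02-fold that in TFE3. Counting error in YAP-TFE3 itself is not included. STMN2 (ENSG00000104435, chromosome 8, 79611117 to 79666158, plus strand) had 2, 4 and 1 counts in CAMTA1, 0 in every EV, EVsub and TFE3 library and at most 2 elsewhere, so that no difference in STMN2 was detectable at this depth. A count of 3 corresponded to 0.0852 to 0.147 CPM, a limit that covers counting error only.

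CAMTA1 against EVsub and TAZ-CAMTA1 against EV were then set side by side. The genes were chosen with the first contrast known, so these values are a description and no test is given. NEFL was higher in CAMTA1 by a log2 fold change of 5.19 (SE 0.38), or 36.5-fold. MAP1A followed at 2.64 (SE 0.14), or 6.25-fold, NEFH at 1.55 (SE 0.09), NEFM at 1.53 (SE 0.29) and MAP1B at 1.19 (SE 0.17). MAPT at 0.26 (SE 0.18), INA at 0.20 (SE 0.11) and UCHL1 at 0.00 (SE 0.15) lay nearest to EVsub. Without the first CAMTA1 library NEFM stood at 1.26. For scale, 1.26% of all tested genes were called higher and 0.57% lower in this comparison, and since the genes were chosen with it in view, nothing is read from their number against that share.

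In TAZ-CAMTA1 the log2 fold changes of the same genes against EV lay between -0.50 and 0.26. The libraries of 3 genes did not overlap those of EV: MAP1A, NEFH and INA. NEFH held 56.0 to 67.0 CPM in TAZ-CAMTA1 and 71.3 to 78.8 CPM in EV. INA held 14.4 to 18.2 CPM in TAZ-CAMTA1 and 13.2 to 13.5 CPM in EV. MAP1A was lower by a log2 fold change of -0.50 (SE 0.13), from 27.5 to 39.2 CPM in EV and 21.6 to 25.2 CPM in TAZ-CAMTA1. Over all tested genes 3.55% were called higher and 1.44% lower, a share that is likewise given for scale only. Without 1 library the value of MAP1A moved between -0.63 and -0.37. The other log2 fold changes were 0.26 for INA (SE 0.11), 0.21 for NEFL (SE 0.50), 0.18 for UCHL1 (SE 0.15), 0.06 for MAP1B (SE 0.17), 0.04 for MAPT (SE 0.17), -0.26 for NEFH (SE 0.09) and -0.32 for NEFM (SE 0.37). The 2 contrasts use different empty vector sets, collected at different density, so density and construct cannot be told apart across them. In the CAMTA1 contrast the summed level of the 18 neuronal markers was 354 to 442 CPM in CAMTA1 and 301 to 407 CPM in EVsub. Most of that sum was 1 gene, L1CAM, at 280 ± 37.25 CPM in CAMTA1 and 246 ± 51.7 CPM in EVsub. The part of these markers in the result was not tested.

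**Figure D2:**
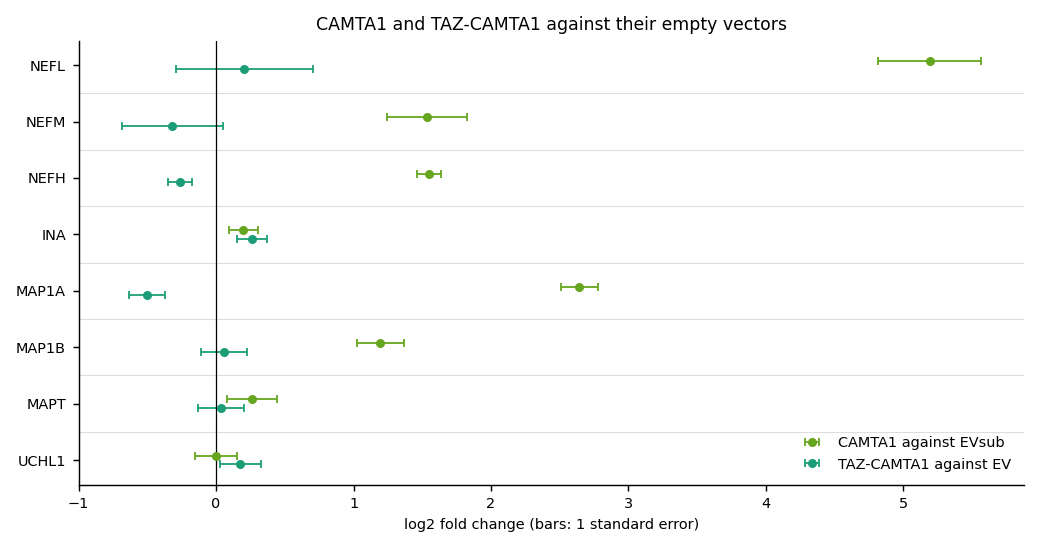
Log2 fold change (horizontal axis) of the 8 tested genes (rows) in CAMTA1 against EVsub and TAZ-CAMTA1 against EV, with 1 standard error as bars (n = 3 per group). NEFL stood at 5.19 and MAP1A at 2.64 in CAMTA1, while all 8 genes lay between -0.50 and 0.26 in TAZ-CAMTA1.

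The remaining comparisons do not enter the rule that set out the genes, and were tested, although the genes and lists were chosen with earlier results of these data known. The comparisons of TAZ4SA, YAP5SA, YAP-TFE3, TFE3 and EVsub share the EV libraries, so their values are not independent of each other. In bulk RNA, more cells with a transcript and more transcript per cell cannot be told apart.

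YAP-TFE3 changed 7 of the 8 genes, in both directions (edgeR quasi-likelihood test, Benjamini-Hochberg over all genes). NEFL rose by a log2 fold change of 2.49 (SE 0.40, edgeR adjusted p = 1.69e-05), UCHL1 by 1.70 (SE 0.14, edgeR adjusted p = 5.49e-10), MAP1B by 0.98 (SE 0.17, edgeR adjusted p = 3.92e-05) and MAPT by 0.90 (SE 0.16, edgeR adjusted p = 5.18e-05). MAP1A fell by 1.73 on the log2 scale (SE 0.14, edgeR adjusted p = 3.46e-10), NEFH stood at -0.93 (SE 0.09, edgeR adjusted p = 8.86e-09) and INA at -0.40 (SE 0.11, edgeR adjusted p = 0.00463). The light and heavy neurofilament subunits thus moved in opposite directions, which they did not in CAMTA1. NEFM at -0.11 (SE 0.36) did not pass. Over all genes 25.6% were called higher and 22.6% lower here, so the 4 higher and 3 lower genes sit in a comparison in which about as many genes changed as did not. Without the third YAP-TFE3 library, left out after the data were seen, NEFL stood at 2.12 (edgeR adjusted p = 1.43e-04), UCHL1 at 1.74, MAP1B at 1.25, MAPT at 0.81, INA at -0.28, NEFH at -0.92 and MAP1A at -1.89, and the same count of 7 was called. MAP2 was not in the main test, and with no filter on low counts its log2 fold change was 6.39 (edgeR adjusted p = 3.66e-06), a value that depends on a prior count because EV is at 0.

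YAP5SA changed 3 of the 8 genes, 2 higher and 1 lower, where 22.7% of all genes were called higher and 21.6% lower. MAP1A fell by 3.08 on the log2 scale (SE 0.16, edgeR adjusted p = 1.18e-13), from 33.4 ± 5.87 to 3.93 ± 0.263 CPM. UCHL1 rose by 1.54 (SE 0.14, edgeR adjusted p = 4.11e-09) and MAP1B by 0.73 (SE 0.17, edgeR adjusted p = 0.00117). NEFL at 0.57 (SE 0.50), NEFM at 0.61 (SE 0.35), MAPT at 0.21, INA at 0.17 and NEFH at 0.03 did not pass. NEFM passed without the first YAP5SA library (log2 fold change 0.90, edgeR adjusted p = 0.0431).

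The libraries labelled TAZ4SA shared the directions of these 3 genes: MAP1A fell by 2.41 on the log2 scale (SE 0.15, edgeR adjusted p = 3.10e-12), UCHL1 rose by 1.03 (SE 0.14, edgeR adjusted p = 2.44e-06) and MAP1B by 0.70 (SE 0.17, edgeR adjusted p = 0.00148). NEFM rose by 1.20 (SE 0.33, edgeR adjusted p = 0.00410), INA by 0.65 (SE 0.11, edgeR adjusted p = 3.38e-05) and NEFH by 0.27 (SE 0.09, edgeR adjusted p = 0.0132). NEFL at -0.10 (SE 0.54) and MAPT at -0.10 (SE 0.17) did not pass. The 5 higher and 1 lower calls compare with 25.1% of all genes higher and 24.2% lower. The call of NEFH was lost without the first EV library (log2 fold change 0.25, edgeR adjusted p = 0.0522) and without the first TAZ4SA library (0.24, edgeR adjusted p = 0.0586). It was also lost with scaling by total counts, where it stood at 0.08 (edgeR adjusted p = 0.418). That scaling moved the median of all genes in TAZ4SA by -0.20 and in YAP5SA by -0.18.

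TFE3 alone changed 0 of the 8 genes by edgeR, and 0 by DESeq2. Unadjusted p-values under 0.05 were found for 2 of them, INA at -0.23 (SE 0.11) and NEFH at -0.25 (SE 0.09). Over all genes 7 were called (0.035% higher and 0% lower). NEFL at -0.69 had a standard error of 0.55, and its 4 to 17 counts did not allow a change of that size to be seen.

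EVsub differed from EV in 4 of the 8 genes. In EVsub against EV, INA rose by 0.61 (SE 0.11, edgeR adjusted p = 1.70e-04) and NEFH by 0.26 (SE 0.09, edgeR adjusted p = 0.0226). MAP1A fell by 0.72 on the log2 scale (SE 0.13, edgeR adjusted p = 2.23e-04) and MAPT stood at -0.75 (SE 0.18, edgeR adjusted p = 0.00212). NEFL at -0.19 (SE 0.53), NEFM at 0.56 (SE 0.34), MAP1B at 0.28 (SE 0.17) and UCHL1 at -0.20 (SE 0.15) did not pass. MAP1B passed with no filter on low counts (0.31, edgeR adjusted p = 0.0115) and with only these groups fitted (0.27, edgeR adjusted p = 0.0137). The 2 higher and 2 lower calls stand beside 19.8% and 17.1% of all genes. The call of NEFH was lost in 4 of 6 fits without a library, those without EV replicate 1 or 3 and without EVsub replicate 2 or 3, with values from 0.24 to 0.26. MAP1A, which was high in CAMTA1, was low in its sub-confluent control relative to confluent cells.

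**Figure D3:**
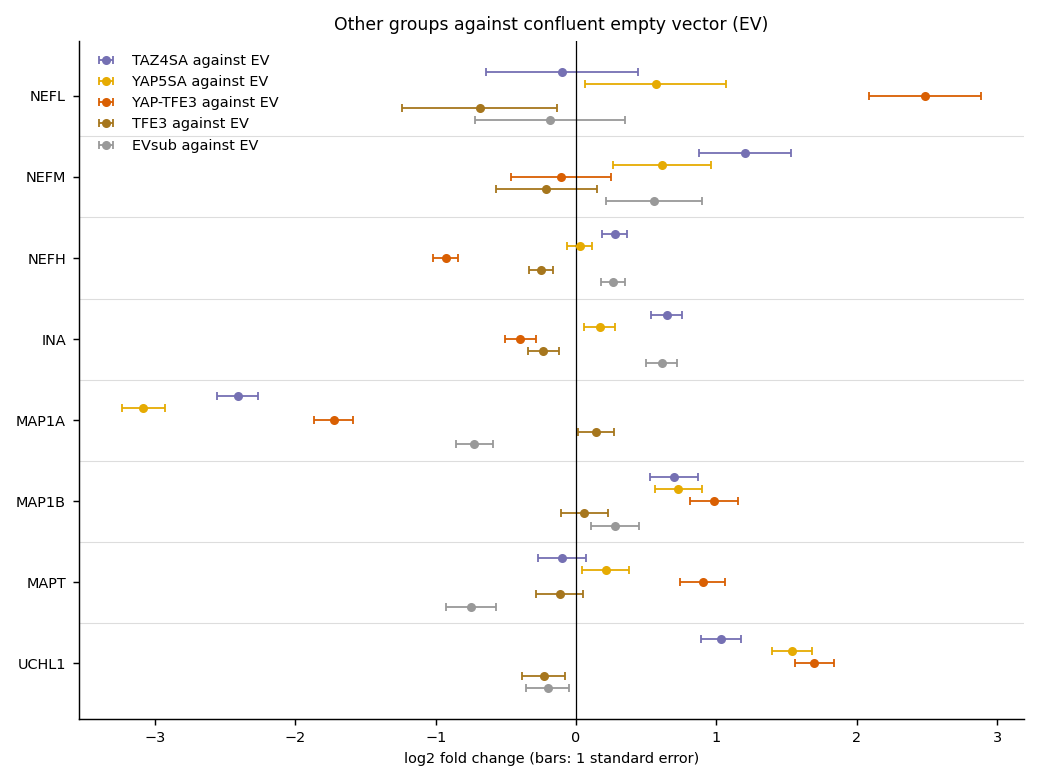
Log2 fold change (horizontal axis) of the 8 tested genes (rows) in TAZ4SA, YAP5SA, YAP-TFE3, TFE3 and EVsub against EV, with 1 standard error as bars (n = 3 per group). MAP1A lay at -2.41, -3.08 and -1.73 in TAZ4SA, YAP5SA and YAP-TFE3, UCHL1 at 1.03, 1.54 and 1.70, and NEFL stood apart in YAP-TFE3 alone at 2.49.

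YAP-TFE3 and YAP5SA were then compared directly. NEFL was higher in YAP-TFE3 by 1.92 (SE 0.38, edgeR adjusted p = 1.81e-04), MAP1A by 1.36 (SE 0.16, edgeR adjusted p = 1.25e-07) and MAPT by 0.69 (SE 0.16, edgeR adjusted p = 7.58e-04). NEFH was lower, at -0.95 (SE 0.09, edgeR adjusted p = 4.52e-09), and INA at -0.57 (SE 0.11, edgeR adjusted p = 1.53e-04). UCHL1 at 0.16 (SE 0.13), NEFM at -0.71 (SE 0.34) and MAP1B at 0.25 (SE 0.17) did not pass. NEFM passed without the first YAP5SA library (-1.01, edgeR adjusted p = 0.0173), and MAP1B passed without the third YAP-TFE3 library, at 0.52 (edgeR adjusted p = 4.34e-04), and with no filter on low counts, at 0.28 (edgeR adjusted p = 0.0192). These were 3 higher and 2 lower of the 8, where 28.1% of all genes were higher and 24.3% lower. MAP2 had 10 to 14 counts in YAP-TFE3 and at most 1 in YAP5SA. The YAP-TFE3 mean was 2.74-fold the CPM that 3 counts per library correspond to in YAP5SA.

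Between the libraries labelled TAZ4SA and YAP5SA fewer genes differed, 3.53% higher and 3.64% lower. MAP1A was higher in TAZ4SA by 0.67 (SE 0.17, edgeR adjusted p = 0.0113) and INA by 0.48 (SE 0.11, edgeR adjusted p = 0.00654), and UCHL1 was lower at -0.50 (SE 0.13, edgeR adjusted p = 0.0192). The call of MAP1A was lost without the first TAZ4SA or the first YAP5SA library (0.62 in both fits). That of UCHL1 was lost without TAZ4SA replicate 2 or YAP5SA replicate 1 or 3 (-0.49 to -0.43), with no filter on low counts (-0.50, edgeR adjusted p = 0.102) and with only these groups fitted (-0.51, edgeR adjusted p = 0.0668).

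The make-up of the neurofilament RNA differed between the groups. Per exon length, NEFL stood at 0.635% ± 0.131 of NEFH in EV and 0.454% ± 0.247 in EVsub. It reached 5.75% ± 0.678 in CAMTA1, with 5.31%, 6.53% and 5.40% in the libraries, and 6.66% ± 2.55 in YAP-TFE3, with 5.21%, 5.16% and 9.60%. The 2 groups overlapped, and no other library exceeded 1.56%. Their NEFH differed, being at 68.3 ± 6.16 RPKM in CAMTA1 and 10.2 ± 0.113 RPKM in YAP-TFE3. NEFM relative to NEFH ran from 1.19% in TAZ-CAMTA1 to 2.39% in TAZ4SA, and INA relative to NEFH was lowest in CAMTA1, at 10.5% ± 0.370 against 26.9% ± 2.01 in EVsub.

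MAP1A and MAP1B also changed in proportion. MAP1A was 10.9% ± 2.47 of MAP1B per exon length in EV, 5.45% ± 1.36 in EVsub and 14.6% ± 0.215 in CAMTA1. In the libraries labelled TAZ4SA it was 1.26% ± 0.216, in YAP5SA 0.772% ± 0.102 and in YAP-TFE3 1.93% ± 1.23, where the libraries held 1.13%, 1.31% and 3.35%. The highest of these 9 libraries lay below the lowest of every other group.

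**Figure D4:**
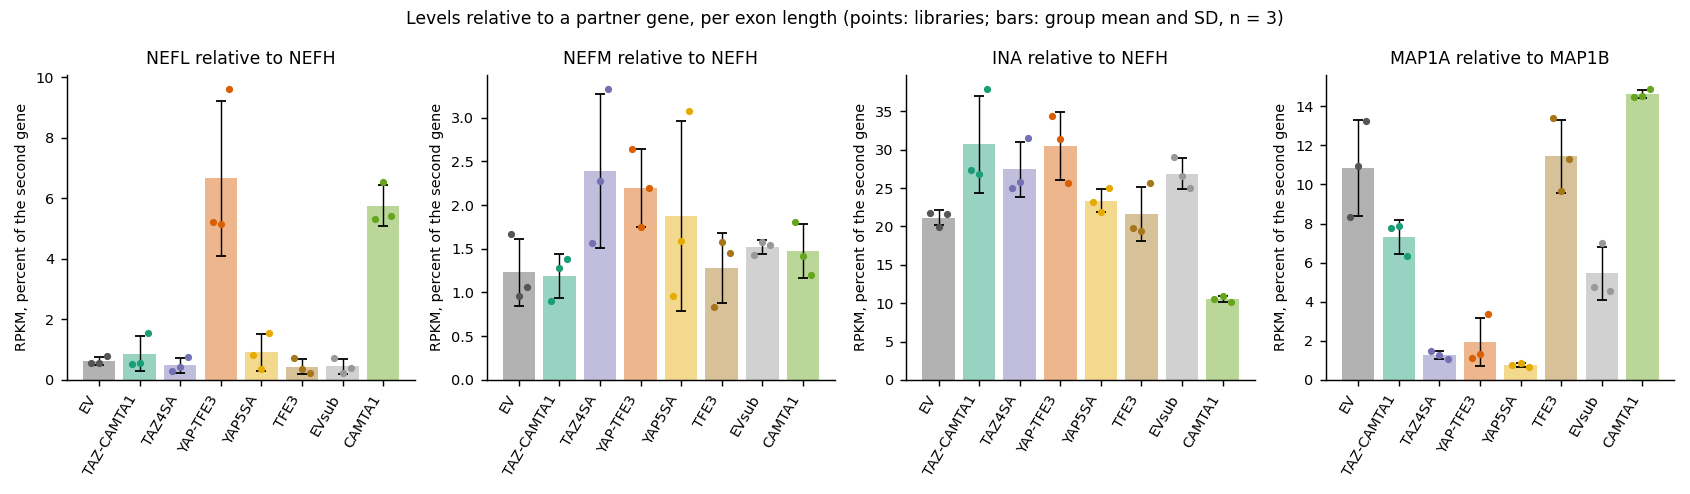
RPKM of NEFL, NEFM and INA as a percent of NEFH, and of MAP1A as a percent of MAP1B (vertical axes, linear from 0), in each library (points) with group mean and SD (bars, n = 3). NEFL reached 5.75% of NEFH in CAMTA1 and 6.66% in YAP-TFE3, and MAP1A dropped to 1.26%, 0.772% and 1.93% of MAP1B in TAZ4SA, YAP5SA and YAP-TFE3.

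Genes around these structures were counted from 8 lists. For scale, 25.6% of all tested genes were called higher and 22.6% lower in YAP-TFE3, and 22.7% and 21.6% in YAP5SA. The shares were 25.1% and 24.2% in the libraries labelled TAZ4SA, 19.8% and 17.1% in EVsub, and 1.26% and 0.57% in CAMTA1 against EVsub. List counts near these shares are not read as a result about a list. Of the 12 tubulin genes, 10 fell and 2 rose in YAP-TFE3 (median log2 fold change -0.78, against -0.01 over all genes), with TUBA1A at -2.16 (SE 0.19, edgeR adjusted p = 1.67e-09) and TUBB2B at -1.09 (SE 0.16, edgeR adjusted p = 5.11e-06). In YAP5SA 6 rose and 2 fell, and 6 rose and 1 fell in the libraries labelled TAZ4SA. TUBB6 rose in both, by 1.65 and 1.53, and TUBA1A fell in both, from 642 ± 52.6 CPM in EV to 335 ± 79.0 and 320 ± 76.2 CPM. Tubulin genes are near-identical in places and their reads may have been shared. In EVsub 7 rose and 0 fell.

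Among the 19 tested genes of other microtubule-associated proteins and stathmins, 5 rose and 8 fell in YAP-TFE3. DPYSL3, a collapsin response mediator, fell by 1.95 on the log2 scale (SE 0.13, edgeR adjusted p = 1.05e-11) and STMN3, a neuronal stathmin, stood at -1.91 (SE 0.11, edgeR adjusted p = 1.13e-12). In the libraries labelled TAZ4SA 9 rose and 6 fell, in YAP5SA 5 rose and 3 fell, with MAP4, the MAP of dividing cells, at 0.86, and in EVsub 4 rose and 2 fell. In CAMTA1 against EVsub 4 of these genes were higher and 0 lower.

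Of 13 other intermediate filament genes tested, 9 rose and 1 fell in the libraries labelled TAZ4SA, 7 rose and 0 fell in YAP5SA, 9 rose and 1 fell in EVsub, and 3 rose and 4 fell in YAP-TFE3. KRT80 and KRT8, epithelial keratins, rose in YAP5SA by 8.01 (SE 0.30, edgeR adjusted p = 7.72e-16) and 5.51 (SE 0.20, edgeR adjusted p = 6.83e-16). Nestin (NES), the filament of neural progenitors, was lower in YAP-TFE3 at -1.22 (SE 0.18, edgeR adjusted p = 6.91e-06), and LMNB1, a nuclear lamin, at -1.68 (SE 0.16, edgeR adjusted p = 3.92e-09). In CAMTA1 against EVsub 0 of the 13 were called in either direction, while 3 had an unadjusted p under 0.05.

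The list of linkers, kinases and motors of neurofilaments gave 7 higher and 3 lower of 19 in YAP-TFE3, with DYNC1H1, the dynein heavy chain, at 0.61 and CDK5R1, an activator of the neurofilament kinase CDK5, at -1.33. For the libraries labelled TAZ4SA it gave 4 higher and 4 lower, with 3 and 2 in YAP5SA and 3 and 1 in EVsub. In CAMTA1 against EVsub 3 were higher and 0 lower. One of these was KIF5A, a neuronal kinesin that carries neurofilament subunits, at 16.4 ± 1.99 CPM where EVsub had 5.69 ± 0.524 (a log2 difference of 1.54, SE 0.21), chosen for mention after its value was seen. Of the 3 relatives of UCHL1, BAP1 fell in YAP-TFE3 (-0.21) and EVsub (-0.34) and rose in the libraries labelled TAZ4SA (0.30), and UCHL5 rose in EVsub (0.89), while UCHL3 and UCHL5 did not pass in the groups where UCHL1 rose.

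Of the 18 neuronal identity markers 11 were tested, and 2 rose and 3 fell in YAP-TFE3, 3 and 6 in YAP5SA, 2 and 3 in EVsub, and 3 and 3 in the libraries labelled TAZ4SA. ENO2, the neuronal enolase, which other tissues also express, rose in TAZ4SA by 2.55 (SE 0.22, edgeR adjusted p = 9.20e-10), in YAP5SA by 2.12 and in YAP-TFE3 by 1.33. Other markers of the list went the other way. CHGB stood at -2.18 in YAP5SA and -1.345 in TAZ4SA, and STX1A at -1.05 in YAP-TFE3. The summed level of the list was 278 to 296 CPM in EV, 395 to 459 CPM in YAP-TFE3, 394 to 546 CPM in TAZ4SA and 608 to 905 CPM in YAP5SA. L1CAM, an adhesion molecule on the list, held 640 ± 125 of these CPM in YAP5SA against 158 ± 6.97 for EV. The part of these markers in the changes of UCHL1 and MAP1B was not tested.

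REST, which represses many neuronal genes, was among 4 tested genes of a list of 12 neuronal transcription factors and REST partners. It rose in YAP-TFE3 by 0.56 (SE 0.13, edgeR adjusted p = 0.00113), and fell in the libraries labelled TAZ4SA (-0.86, SE 0.14, edgeR adjusted p = 1.41e-05) and in YAP5SA (-0.54, SE 0.14, edgeR adjusted p = 0.00238). No gene of this list was called in CAMTA1 against EVsub, by edgeR or at an unadjusted p under 0.05. NEUROD1 was at 0 in every group. Of the 14 mesenchymal markers 3 rose and 7 fell in YAP-TFE3, 6 rose and 3 fell in YAP5SA, 5 rose and 6 fell in the libraries labelled TAZ4SA and 5 rose and 7 fell in EVsub, with the actin-binding TAGLN at 3.68 in YAP5SA and -1.24 in YAP-TFE3. In TFE3 none of the 8 lists held a gene called by edgeR, and the tubulin, microtubule-associated and mesenchymal lists each had 1 gene with an unadjusted p under 0.05.

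The same lists were counted for the contrasts that had not been read for them so far. The shares of all genes called higher and lower were 3.55% and 1.44% in TAZ-CAMTA1 against EV. They were 28.1% and 24.3% in YAP-TFE3 against YAP5SA, and 3.53% and 3.64% in TAZ4SA against YAP5SA. In CAMTA1 against EVsub 1 of 12 tubulin genes and 2 of 11 neuronal identity markers were higher, and 0 of 14 mesenchymal markers were called. In TAZ-CAMTA1 against EV the counts were 3 higher of 13 other intermediate filament genes, 1 lower of 12 tubulin genes, 2 higher and 2 lower of 19 microtubule-associated genes, 1 lower of 19 linkers, 2 lower of 11 neuronal markers and 3 higher of 14 mesenchymal markers. Between YAP-TFE3 and YAP5SA, 11 of 13 other intermediate filament genes were lower in YAP-TFE3, as were 10 of 12 tubulin genes and 12 of 19 microtubule-associated genes, with 0, 1 and 3 higher. STMN1, the stathmin of proliferating cells, lay there at -1.81 (SE 0.10, edgeR adjusted p = 3.29e-13). Between the libraries labelled TAZ4SA and YAP5SA the counts were 3 higher and 1 lower of 19 microtubule-associated genes, 4 higher and 1 lower of 11 neuronal markers, 0 higher and 5 lower of 14 mesenchymal markers, 1 higher and 1 lower of 13 other intermediate filament genes, 1 higher of 19 linkers, 1 higher of 4 neuronal transcription factors and REST partners, and 0 of the 12 tubulin genes and the 3 relatives of UCHL1, among which 1 tubulin gene had an unadjusted p under 0.05. Of the mesenchymal markers, the collagen genes COL1A1, COL1A2 and COL3A1 stood at -2.03, -1.93 and -1.67.

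Likeness of pattern was measured as Pearson's r of the 8 group means of log2 CPM, over 12155 genes, and is a description of means that share libraries. Among the genes printed, NEFL was most like TTC19 (r = 0.977), PNMA3 (0.962), PREPL (0.913) and ATP13A2 (0.908). NEFH was most like CORO2B (0.966) and DDX24 (0.965), followed by PRKDC and MGAT5. MAP1A was most like LRIG1 and ADAM22 (0.989 each), followed by FAM104B, ANKRD42 and POLR2A, and UCHL1 was most like SLC19A3 (0.992), METTL22 (0.990), SLC7A11 (0.988), FSTL3 and KLHL29. Candidates had to average 100 counts or more per library, so NEFL, NEFM, MAPT, MAP2 and STMN2 could not be listed for any gene. NEFH, INA, MAP1A, MAP1B and UCHL1 could be listed, and none of them stood among the 5 most alike of another of the 4 genes. Likeness to the members left out was not tested.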

How the data were processed

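Poly(A) RNA of SW872 cells was sequenced in pairs with a stranded kit. Each library had a deposited table of raw counts for Ensembl genes. The authors had aligned the reads with Hisat2, run within bcbio-nextgen, to the hg38 genome. The counting tool, its use of strand and its treatment of reads with several alignments are not given in the sources used here, and a gene that overlaps another or has close copies is therefore uncertain. The authors ran DESeq2 on salmon estimates, a different quantification. No replicates were pooled, and per the study's methods the 3 libraries of a group came from separate transductions, each with its own selection.

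Groups and replicate numbers came from the titles. The EVsub group was titled sub-confluent. Symbols, coordinates and exon lengths came from GENCODE 44, which matched 56104 of 60279 identifiers. Counts of all 24 libraries were fitted with 1 mean per group (edgeR 4.0.16, R 4.3.3, TMM scaling, quasi-likelihood F test, mean of at least 5 counts, 19997 genes). A gene was called at a Benjamini-Hochberg adjusted p under 0.05. Each standard error is the log2 fold change divided by the root of its F value. RPKM is CPM per kilobase of exon. The fit was tested on simulated counts.

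The 10 genes and all 8 lists were chosen with earlier results of these data known. Named from each list and comparison outside CAMTA1 against EVsub and TAZ-CAMTA1 against EV were up to 3 called genes with the largest absolute log2 fold change and a mean of at least 100 counts, of which a part is printed, and for 4 genes the 5 most alike in pattern, of which 2 are not reported here. Alternatives were DESeq2 1.42.0, DESeq2 size factors, total-count scaling, other filters, a replicate block, fits on the groups compared and fits without each library. Library totals of 19700277 to 35287476 counts set the precision, and floors of 3 counts cover counting error only, since no molecular identifiers were described.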

Additional observations from a re-analysis of the deposited data

How the results depend on the processing

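All 72 log2 fold changes (8 genes in 9 comparisons) kept direction with DESeq2 and with DESeq2 size factors. They also did so with a mean of at least 20 counts. In the comparisons that were tested, they kept their side of the threshold as well. For CAMTA1 against EVsub and TAZ-CAMTA1 against EV only the direction is read, since no test is given there. Under total-count scaling UCHL1 in CAMTA1 against EVsub reversed to -0.0269, and NEFH and INA in YAP5SA against EV to -0.162 and -0.0190. The values in YAP5SA were not called. Without a filter UCHL1 in CAMTA1 against EVsub reached -0.00515 and with the replicate block -0.00280. NEFH in TAZ-CAMTA1 against EV stood at -0.26 under total-count scaling and with the replicate block, as in the main fit. All genes called in CAMTA1 against EVsub were 652 with no filter and 648 with only the 2 groups compared, against 366, and in TFE3 against EV 40, 2 and, by DESeq2, 15, against 7. The cause was not tested.

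Deviations of same-numbered libraries from their group means correlated at -0.236 to 0.366, and in 0 of 9 comparisons was every pair over 0.1. The libraries were therefore fitted unpaired, but this rule cannot exclude a batch shared by some libraries of the same number. With the replicate block, the calls among the genes described here were unchanged in the comparisons that were tested.

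Without 1 library, all genes called ranged in CAMTA1 against EVsub from 177 to 447, in TAZ-CAMTA1 against EV from 545 to 884, in TFE3 against EV from 1 to 12 and in TAZ4SA against YAP5SA from 900 to 1299. Of the 8 genes, those called ranged in TAZ4SA against YAP5SA from 1 to 3.

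Some log2 fold changes changed sign without 1 library. Where the comparison was tested, they were not called in the full fit. Their ranges were MAP1B in TAZ4SA against YAP5SA from -0.15 to 0.0817, MAPT in TAZ-CAMTA1 against EV from -0.0981 to 0.11, MAPT in TFE3 against EV from -0.25 to 0.0069, NEFH in YAP5SA against EV from -0.00726 to 0.0768, NEFL in EVsub against EV from -0.61 to 0.0501, NEFL in TAZ-CAMTA1 against EV from -0.40 to 0.42, NEFL in TAZ4SA against EV from -0.51 to 0.14, NEFL in YAP5SA against EV from -0.00822 to 0.92, NEFM in TFE3 against EV from -0.46 to 0.0573, NEFM in YAP-TFE3 against EV from -0.25 to 0.16 and UCHL1 in CAMTA1 against EVsub from -0.0369 to 0.0319.

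Scaling by total counts moved the split of calls. Higher calls were 56.8% of all calls in CAMTA1 against EVsub in place of 68.9%, 31.4% in place of 50.9% in TAZ4SA against EV, 31.4% in place of 51.2% in YAP5SA against EV and 42.0% in place of 53.7% in EVsub against EV. They were 43.8% in place of 53.1% in YAP-TFE3 against EV and, in the other direction, 61.9% in place of 53.6% in YAP-TFE3 against YAP5SA. Depth limits NEFL and NEFM outside CAMTA1, where libraries held few counts, and MAP2 and STMN2 everywhere.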
